A study of Mus musculus with 39 samples.

Results

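The Cyp2c family described here comprises 10 cytochrome P450 genes of mouse chromosome 19: Cyp2c29, Cyp2c37, Cyp2c38, Cyp2c39, Cyp2c40, Cyp2c50, Cyp2c54, Cyp2c55, Cyp2c69 and Cyp2c70. They were taken by symbol, and all 10 were found among the 54735 genes of both the liver and the spleen table, which hold 18 Cyp2c genes and pseudogenes in all. RNA sequencing was done on 4-week-old C57BL/6 mice, in liver and in spleen. Knockout mice lacking SXR, a nuclear receptor that is also called PXR and is encoded by Nr1i2, and wild-type mice were exposed perinatally and up to that age to the polychlorinated biphenyl PCB-153, at about 54 µg per kg per day, or to its vehicle, DMSO. The 4 groups are knockout with PCB-153, knockout with vehicle, wild type with PCB-153 and wild type with vehicle, each of 5 libraries in a tissue, apart from wild-type vehicle in spleen with 4, which makes 39. The sources used here do not give how the knockout allele was made, which exons it lacks, or whether each library is a different animal or litter. The p-values therefore measure the spread between these samples only.

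Cyp2c enzymes sit in the membrane of the endoplasmic reticulum and oxidise drugs, fatty acids, retinoids and bile acids, taking their electrons from the reductase encoded by Por. In mouse liver they are made by hepatocytes, and several of them are known to be switched on by the nuclear receptors SXR/PXR and CAR when foreign compounds are bound. Several mouse Cyp2c enzymes turn arachidonic acid into epoxides or hydroxy acids, which act as signalling lipids.

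Liver libraries held 15.23 to 28.65 M reads and spleen libraries 16.1 to 29.52 M. In liver the 8 hepatocyte markers, albumin among them, summed to between 1857660 and 2547220 normalised counts in every library. Nr1i2 was lower in knockout than in wild-type livers but was still counted: 862 ± 215 normalised counts in knockout PCB-153 livers, 714 ± 192 in knockout vehicle livers, 1395 ± 390 in wild-type PCB-153 livers and 1572 ± 178 in wild-type vehicle livers (SD, n = 5 each). The limma adjusted p was 0.111 for knockout against wild type with PCB-153 and 0.00415 with vehicle. In the authors' deposited table Nr1i2 is called in both, with adjusted p of 0.0402 with PCB-153 and 1.77e-05 with vehicle. In spleen Nr1i2 stood at 52.1 ± 5.58 and 55.5 ± 7.90 in the PCB-153 and vehicle libraries labelled knockout (n = 5 each), against 0.446 ± 0.998 (n = 5) and 0.567 ± 1.13 (n = 4) in the wild-type libraries, so the spleen values go against their genotype label and are given by label only.

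The members lie within 1.18 Mb of chromosome 19 (GRCm38, 39007019 to 40187333, GENCODE M21), in the order Cyp2c55, Cyp2c29, Cyp2c38, Cyp2c39, Cyp2c40, Cyp2c69, Cyp2c37, Cyp2c54, Cyp2c50 and Cyp2c70. Some are near-copies of each other: Cyp2c40 and Cyp2c69, Cyp2c37, Cyp2c50 and Cyp2c54 as a set, and Cyp2c38 and Cyp2c39. This limits how their reads can be told apart. The first 60 coding bases are shown because they make the 3 closest subgroups visible. In the first set capitals mark bases unlike Cyp2c29:

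Cyp2c29: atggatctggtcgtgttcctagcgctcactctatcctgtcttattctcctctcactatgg

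Cyp2c38: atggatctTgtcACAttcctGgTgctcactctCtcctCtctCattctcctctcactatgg

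Cyp2c39: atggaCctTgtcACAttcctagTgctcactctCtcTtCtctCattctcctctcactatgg

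Cyp2c55: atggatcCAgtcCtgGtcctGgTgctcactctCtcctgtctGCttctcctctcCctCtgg

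Cyp2c70: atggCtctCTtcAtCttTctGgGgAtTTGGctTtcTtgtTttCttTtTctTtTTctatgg

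In the second set capitals mark bases unlike Cyp2c37, and Cyp2c54 has none:

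Cyp2c37: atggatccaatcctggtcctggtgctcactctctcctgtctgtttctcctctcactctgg

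Cyp2c50: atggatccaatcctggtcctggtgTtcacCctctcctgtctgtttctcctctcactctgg

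Cyp2c54: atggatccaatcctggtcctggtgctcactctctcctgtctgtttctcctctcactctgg

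In the third set capitals mark bases unlike Cyp2c40, which is shown from base 88 of its longest annotated coding sequence, where it lines up with the start of Cyp2c69:

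Cyp2c40: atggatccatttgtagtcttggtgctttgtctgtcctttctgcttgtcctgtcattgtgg

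Cyp2c69: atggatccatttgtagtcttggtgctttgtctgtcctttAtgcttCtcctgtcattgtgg

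Over the whole coding sequence, of 1467 to 1560 bases, Cyp2c40 and Cyp2c69 were identical at 97.9% of aligned bases, Cyp2c37 and Cyp2c50 at 96.1%, Cyp2c50 and Cyp2c54 at 95.2%, Cyp2c37 and Cyp2c54 at 95.1% and Cyp2c38 and Cyp2c39 at 94.2%. Cyp2c70 stood apart, at 68.8% or less with any other member. Shared sequence was also counted in words of 50 bases: the percentage of those in any transcript of a gene that another gene holds too. It was 60.3% for Cyp2c40: 36.7% with Cyp2c69, and 30.2% and 26.8% with the non-members Cyp2c67 and Cyp2c68, where 1 word can count for several genes. It was 54.3% for Cyp2c69: 46.5% with Cyp2c40, 30.6% with Cyp2c67 and 18.8% with Cyp2c68. It was 30.1% for Cyp2c37 and 18.3% for Cyp2c50, each most with the other and then with Cyp2c54. It was 25.7% for Cyp2c54, most with Cyp2c50 and then with Cyp2c37, 12.0% for Cyp2c39 and 7.45% for Cyp2c38. It was 4.25% for Cyp2c29, nearly all with Cyp2c53-ps, a pseudogene that overlaps it on the same strand and had at most 31.0 normalised counts in any liver library. It was 1.13% for Cyp2c55, mostly with the microRNA gene Gm23800 on the other strand, and 0% for Cyp2c70. The sources used here do not give how reads that match several genes were assigned, or whether counting used strand. The levels of Cyp2c40, Cyp2c69, Cyp2c37, Cyp2c50 and Cyp2c54 are therefore the least certain of the family.

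The promoter windows of Cyp2c55, Cyp2c29, Cyp2c37 and Cyp2c50 (RefSeq, GRCm38.p6, plus strand, 250 bases before to 50 after the start) are shown because the first 3 are the members that differed by genotype and the fourth is the closest relative of Cyp2c37. In the first 2, capitals mark AGGTCA, a half-site word of nuclear receptors searched on both strands, and TATAAA, the TATA box word searched on the gene's strand. Cyp2c55 lies at chr19:39006769-39007068 and Cyp2c29 at chr19:39286835-39287134:

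Cyp2c55: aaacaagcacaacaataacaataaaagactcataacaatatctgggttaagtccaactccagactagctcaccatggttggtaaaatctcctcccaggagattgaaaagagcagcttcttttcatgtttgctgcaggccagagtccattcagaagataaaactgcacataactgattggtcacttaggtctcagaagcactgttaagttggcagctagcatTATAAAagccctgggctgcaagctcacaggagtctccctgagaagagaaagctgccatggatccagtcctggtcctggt

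Cyp2c29: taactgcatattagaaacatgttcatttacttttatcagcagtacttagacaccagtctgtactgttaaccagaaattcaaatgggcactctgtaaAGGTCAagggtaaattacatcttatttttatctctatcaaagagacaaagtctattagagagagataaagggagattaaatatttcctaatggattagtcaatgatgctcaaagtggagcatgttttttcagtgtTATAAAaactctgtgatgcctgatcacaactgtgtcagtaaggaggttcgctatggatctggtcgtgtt

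In the next pair, Cyp2c37 at chr19:39992174-39992473 and Cyp2c50 at chr19:40089429-40089728, capitals mark bases that differ from the other window or have no partner in it:

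Cyp2c37: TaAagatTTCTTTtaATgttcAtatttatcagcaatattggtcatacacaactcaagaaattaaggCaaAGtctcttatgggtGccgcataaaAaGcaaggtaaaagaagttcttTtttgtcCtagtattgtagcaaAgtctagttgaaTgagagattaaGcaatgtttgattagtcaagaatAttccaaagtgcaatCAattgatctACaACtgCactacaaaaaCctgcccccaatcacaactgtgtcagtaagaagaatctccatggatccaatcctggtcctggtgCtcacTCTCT

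Cyp2c50: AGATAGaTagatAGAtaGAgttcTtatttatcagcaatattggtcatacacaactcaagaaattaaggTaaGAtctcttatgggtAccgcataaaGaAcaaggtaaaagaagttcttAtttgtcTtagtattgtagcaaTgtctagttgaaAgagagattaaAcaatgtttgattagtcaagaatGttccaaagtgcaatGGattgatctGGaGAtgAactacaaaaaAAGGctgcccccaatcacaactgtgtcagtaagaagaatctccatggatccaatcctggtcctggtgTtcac

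The Cyp2c37 and Cyp2c50 windows were identical at 263 of 292 aligned bases, or 90.1%, against 98.9% for Cyp2c40 and Cyp2c69 and 88.2% for Cyp2c38 and Cyp2c39. TATAAA begins 29 bases before the start of Cyp2c55 and 19 before that of Cyp2c29, and 6 of the 9 members with a window hold it, compared with 8.32% of the 32851 promoter windows of the table. AGGTCA was found in 2 of the 9, Cyp2c29 and Cyp2c70, against 16.3% of all windows. The related half-site AGTTCA was found in 4, one of them Cyp2c50 at 35 bases before the start on the other strand, against 14.0% of all windows. None of the 9 held 2 such half-sites as a direct repeat spaced by 4 bases, which 0.0274% of all windows hold. AAAGTCCA, a core word of HNF4A sites, was found in 3, Cyp2c40, Cyp2c69 and Cyp2c70, against 1.25% of all windows.

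In livers exposed to PCB-153, Cyp2c55, Cyp2c29 and Cyp2c37 were higher in knockout than in wild type, and the other 7 members did not pass the test. All 10 members passed the filter on low values in liver. The 3 called members, all higher, compare with 1.45% of the 16155 genes tested being called in either direction. At an unadjusted p under 0.05 there were 6 of 10 members, beside 10.7% of all genes. Here and below, members are not independent of each other, because near-copies may share reads and some members varied together. The median difference was 0.31 on the log2 scale over the 10 members and 0.00 over all genes tested, and 8 of 10 members were positive beside 50.4% of all genes. Differences here and below are on the log2(normalised count + 1) scale, and calls are limma tests with a Benjamini-Hochberg adjusted p under 0.05 over all genes tested.

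Cyp2c55 oxidises arachidonic acid and is known in mice as a gene that both SXR/PXR and CAR activators induce. Its normalised counts in libraries 1 to 5 were 1174, 2391, 1906, 1657 and 3178 in knockout PCB-153 livers, against 629, 769, 616, 524 and 768 in wild-type PCB-153 livers. All 5 knockout libraries stood above all 5 wild-type libraries. The difference was 1.57 ± 0.19 (SE, limma adjusted p = 8.07e-05).

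Cyp2c29, an arachidonic acid epoxygenase, had 41851, 52069, 61336, 37969 and 85719.5 normalised counts in knockout PCB-153 livers, against 13432, 16364, 18242, 15507 and 23973 in wild-type PCB-153 livers. The groups did not overlap, and library 5 was the highest of each group. The means were 55789 ± 19054 in knockout and 17504 ± 4008 in wild type (SD, n = 5 each), a ratio of 3.19. The log2 difference was 1.64 ± 0.22 (limma adjusted p = 2.36e-04), and it lay between 1.47 and 1.76 under every alternative tried.

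Cyp2c37, which hydroxylates arachidonic acid, had 7703, 13049, 14129, 6211 and 12436 normalised counts in knockout PCB-153 livers, against 3431, 3882, 4739.7, 4288 and 6793 in wild-type PCB-153 livers. Of the 5 knockout libraries 4 stood above all wild-type libraries, and knockout library 4 fell below wild-type library 5. The difference was 1.18 ± 0.23 (limma adjusted p = 0.00834). Its near-copies Cyp2c50 and Cyp2c54, enzymes that oxidise arachidonic and linoleic acid, differed by 0.11 (95% interval -0.29 to 0.52) and 0.16 (-0.24 to 0.56).

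Among the remaining members, Cyp2c39, known in mice as a retinoic acid hydroxylase, differed by 0.63 (limma adjusted p = 0.437) and its near-copy Cyp2c38, an arachidonic acid epoxygenase, by -0.47 (limma adjusted p = 0.452). Cyp2c69 and Cyp2c40, both reported as more abundant in female than in male adult mouse liver, differed by 0.47 (limma adjusted p = 0.393) and -0.22 (0.607). Cyp2c70, which makes the muricholic bile acids of mice, differed by 0.06 (95% interval -0.30 to 0.43).

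**Figure D1:**
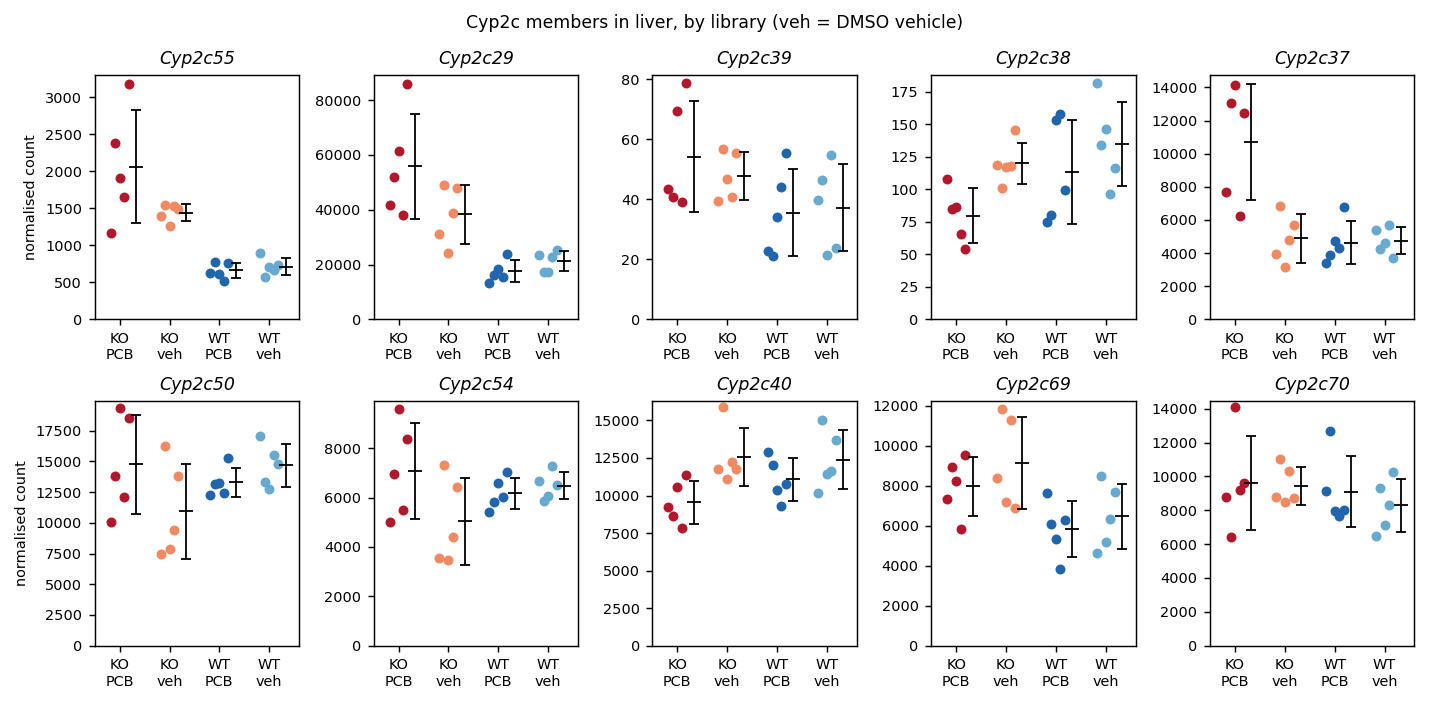
Normalised counts (vertical axis, linear from 0) of the 10 members in the 20 liver libraries, by group, from knockout (KO) with PCB-153 to wild type (WT) with vehicle. Points are libraries, and the bar beside them is the mean with its SD (n = 5). For Cyp2c55, the 5 knockout PCB-153 libraries lie between 1174 and 3178 and the wild-type PCB-153 libraries between 524 and 769.

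With vehicle, Cyp2c55 was higher in knockout than in wild-type livers and was the only called member, 1 of 10 beside 0.607% of all genes tested. Its normalised counts in libraries 1 to 5 were 1391, 1543, 1266, 1526 and 1495 in knockout vehicle livers, against 894, 566, 705, 670.0 and 738 in wild-type vehicle livers. The groups did not overlap, and the difference was 1.03 ± 0.19 (limma adjusted p = 0.00798). This comparison and the one with PCB-153 use different libraries, and both enter 1 fit.

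Cyp2c29 had 31324, 48918, 24217, 38994 and 48008 normalised counts in knockout vehicle livers, against 23491, 17307, 17282, 22772 and 25256 in wild-type vehicle livers. Knockout library 3 lay within the wild-type range and the other 4 above it. The difference of 0.82 ± 0.22 missed the limma threshold (adjusted p = 0.106). In the authors' deposited table the log2 fold change is 0.85 (adjusted p = 0.0141), and the call for Cyp2c29 with vehicle depends on the test. DESeq2 on the recovered reads called it, beside 1.39% of the 19161 genes to which it gave an adjusted p. That run repeats the authors' tool on the same counts and is not separate support.

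Cyp2c50 and Cyp2c54 had negative log2 differences with vehicle, -0.49 ± 0.20 (limma adjusted p = 0.302) and -0.43 ± 0.19 (0.360), and neither passed the test. Cyp2c50 had 7464, 16241, 7881, 9417 and 13781 normalised counts in knockout vehicle livers, against 17081, 13335, 12729, 15559.5 and 14828 in wild-type vehicle livers. Knockout libraries 1, 3 and 4 were below every wild-type library, and knockout libraries 2 and 5 were within the wild-type range. Cyp2c54 split the same libraries, with 3566, 3465 and 4386 in knockout libraries 1, 3 and 4, 7330.2 and 6425 in knockout libraries 2 and 5, and 5869 to 7267 in wild-type vehicle livers.

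The other 6 members differed by between -0.14 for Cyp2c38 and 0.50 for Cyp2c69, with limma adjusted p from 0.302 upward. Cyp2c37 differed by 0.01 (95% interval -0.48 to 0.50). The median over the 10 members was 0.11, beside 0.01 over all genes tested, and 7 of 10 were positive beside 51.2% of all genes. At an unadjusted p under 0.05 there were 5 of 10 members (Cyp2c55, Cyp2c29, Cyp2c50, Cyp2c54 and Cyp2c69), beside 12.6% of all genes.

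**Figure D2:**
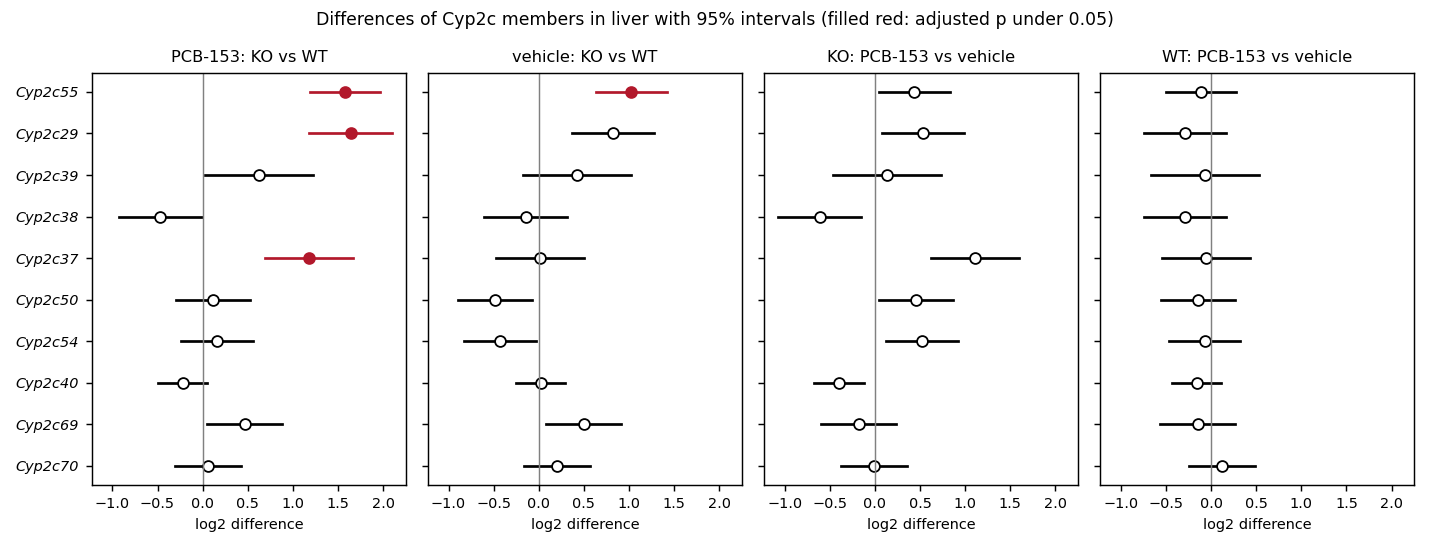
Log2 differences (horizontal axis, log2(normalised count + 1) scale) of the 10 members in liver for knockout against wild type with PCB-153 and with vehicle, and for PCB-153 against vehicle in knockout and in wild type. Points are limma estimates with 95% intervals, filled red where the adjusted p is under 0.05: Cyp2c55, Cyp2c29 and Cyp2c37 in the first panel and Cyp2c55 in the second.

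PCB-153 against vehicle within knockout livers gave no called member (0 of 10, beside 0% of all genes tested by limma). At an unadjusted p under 0.05 it gave 7 of 10 members, beside 9.85% of all genes. By edgeR 0 members passed, as did 0 of all genes. By DESeq2 1 member, Cyp2c37, passed, beside 0.951% of the 6628 genes to which it gave an adjusted p. Cyp2c37 had 7703 to 14129 normalised counts in 4 knockout PCB-153 libraries and 6211 in library 4, against 3930.0, 6854, 3144, 4806 and 5715 in knockout vehicle livers. Only knockout PCB-153 library 4 lay within the vehicle range. The difference was 1.11 ± 0.23 (limma adjusted p = 0.0959), and the authors' deposited table gives 1.13 with an adjusted p of 0.00160.

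The other 6 with an unadjusted p under 0.05 went both ways in knockout livers with PCB-153. Cyp2c29 (0.53), Cyp2c54 (0.52), Cyp2c50 (0.46) and Cyp2c55 (0.44) had positive differences, and Cyp2c38 (-0.61) and Cyp2c40 (-0.40) negative ones, each with a limma adjusted p between 0.396 and 0.487. For Cyp2c38, 4 of the 5 knockout PCB-153 libraries, at 54.0 to 86.2 normalised counts, lay below all knockout vehicle libraries, at 101 to 146, and the fifth was at 108. For Cyp2c40, 4 of 5 likewise lay below all vehicle libraries. Of the 10 members 6 were positive, beside 49.5% of all genes. The median size of the difference, sign aside, was 0.45 over the members and 0.16 over all genes tested.

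In wild-type livers PCB-153 gave differences of -0.29 for Cyp2c38 and Cyp2c29 to 0.13 for Cyp2c70. No member was called by limma, edgeR or DESeq2 and none had an unadjusted p under 0.05 (0 of 10, beside 6.69% of all genes at that level and 0% called). Of the 10 members 1 was positive, beside 48.7% of all genes. The median size, sign aside, was 0.13 over the members and 0.14 over all genes. Cyp2c37 differed by -0.06 (95% interval -0.54 to 0.43) and Cyp2c55 by -0.11 (-0.50 to 0.28).

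The test of whether the exposure difference itself differed between genotypes, the interaction, called no member and no gene (0% of genes tested) by limma, edgeR or DESeq2. At an unadjusted p under 0.05 it gave 4 of 10 members, beside 2.69% of all genes. These were Cyp2c37 (1.17 ± 0.33, unadjusted p = 0.00192), Cyp2c29 (0.82 ± 0.31, 0.0155), Cyp2c54 (0.59 ± 0.27, 0.0410) and Cyp2c50 (0.60 ± 0.28, 0.0419), all with a limma adjusted p of 1.00. Among these, Cyp2c37, Cyp2c54 and Cyp2c50 are near-copies that may share reads. Of the 10 members 6 were positive, beside 49% of all genes. The comparisons share groups: each exposure difference uses libraries that the genotype differences also use, so their values are given side by side and not as separate support.

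The summed share of the family in liver reads, given here with no test, was highest in knockout PCB-153 livers. The 10 members made up 0.646 ± 0.164% of all normalised counts in knockout PCB-153 livers, 0.494 ± 0.111% in knockout vehicle livers, 0.368 ± 0.0553% in wild-type PCB-153 livers and 0.388 ± 0.0291% in wild-type vehicle livers (SD, n = 5 each). The knockout and wild-type ranges did not overlap with PCB-153 (0.491 to 0.873% against 0.300 to 0.452%) and overlapped with vehicle (0.352 to 0.637% against 0.348 to 0.419%). In these whole-tissue libraries fewer cells that make a transcript and less of it per cell cannot be told apart.

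Levels of different members were compared per kb of annotated exon. Cyp2c29 ranked first in every group, at 18226 ± 6225 normalised counts per kb in knockout PCB-153 livers, 12510 ± 3482 in knockout vehicle livers, 5718 ± 1309 in wild-type PCB-153 livers and 6933 ± 1208 in wild-type vehicle livers. In both knockout groups its range lay above that of the next member, and in both wild-type groups it overlapped that of Cyp2c40. It made up 37.1 ± 3.97% of the summed level per kb in knockout PCB-153 livers, 31.9 ± 3.51% in knockout vehicle livers, 18.9 ± 3.06% in wild-type PCB-153 livers and 21.2 ± 2.85% in wild-type vehicle livers.

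Cyp2c37 ranked second per kb in knockout PCB-153 livers (5869 ± 1927) and seventh in the other 3 groups (2681 ± 799.9, 2537 ± 715 and 2597 ± 446 in knockout vehicle, wild-type PCB-153 and wild-type vehicle livers). In knockout PCB-153 livers the ranges of neighbours from Cyp2c37 down to Cyp2c54 overlapped, so their order is not resolved. Cyp2c55 ranked eighth in every group, at 1033 ± 382 per kb in knockout PCB-153 and 331 ± 53.1 in wild-type PCB-153 livers, apart from its neighbours on both sides. Cyp2c38 and Cyp2c39 were the lowest, between 11.7 and 63.4 normalised counts per kb in every liver library.

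**Figure D3:**
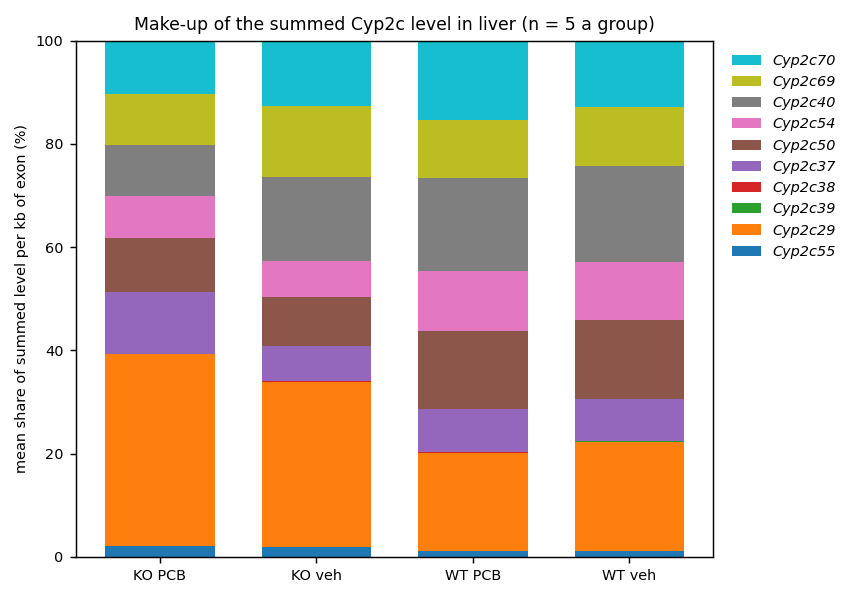
Mean share (vertical axis, %) of each member in the summed level per kb of exon in liver, for knockout with PCB-153, knockout with vehicle, wild type with PCB-153 and wild type with vehicle (n = 5 each). The Cyp2c29 segment is 37.1% and 31.9% in the knockout groups and 18.9% and 21.2% in the wild-type groups, while the segments of Cyp2c38 and Cyp2c39 are too thin to see.

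Across the 20 liver libraries some members varied together. The correlations below are Pearson's r of log2(normalised count + 1), given as descriptions. The libraries share a normalisation, and near-copies may share reads. The closest pairs were Cyp2c50 and Cyp2c54 (r = 0.97, and 0.97 after the group means were removed), Cyp2c29 and Cyp2c55 (0.93 and 0.68) and Cyp2c29 and Cyp2c37 (0.79 and 0.81). Cyp2c40 and Cyp2c69, the most alike in sequence, had 0.50 and 0.85. Once the group means were removed, Cyp2c37 also had 0.85 with Cyp2c54 and 0.79 with Cyp2c50, and Cyp2c29 had 0.84 with both. The lowest over the 20 libraries was Cyp2c38 with Cyp2c55 (-0.52 and -0.40). The lowest after the group means were removed was Cyp2c38 with Cyp2c69 (-0.57).

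Outside the family, Glul, the glutamine synthetase of the hepatocytes next to the central vein, was the gene most like both Cyp2c50 (r = 0.93, and 0.96 within groups) and Cyp2c54 (0.88 and 0.95). The knockout vehicle livers split in Glul as they did in Cyp2c50: 4492, 4537 and 4774 normalised counts in libraries 1, 3 and 4, and 12590 and 10653 in libraries 2 and 5, against 8720 to 11763 in wild-type vehicle livers. Knockout PCB-153 livers had 5281, 7170.1, 14121, 5934 and 12337. Over all 20 livers the other 8 members had r of 0.35 or less with Glul. Within groups Cyp2c29 had 0.79 (0.02 over all), Cyp2c37 0.74 (0.31), Cyp2c39 0.57 (0.22), Cyp2c40 0.54 (0.35), Cyp2c55 0.47 (-0.17) and the remaining 3 between -0.18 and 0.37. Knockout PCB-153 library 2 had high Cyp2c37 (13049) with Glul at 7170.1.

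The summed level of 6 pericentral markers was 50534 to 104637 in knockout vehicle livers, against 92537 to 107907 in wild-type vehicle livers, with 1 of the 6 positive, 0 called and a median log2 difference of -0.50. With PCB-153 it was 65472 to 138898 in knockout against 74222 to 102148 in wild type, with a median of 0.00 and 0 called. The 6 periportal markers had a median of 0.59 with vehicle and 0.27 with PCB-153, with 0 called. Every gene of both lists was counted in every liver library, and the part of these lists in the Cyp2c differences was not tested.

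**Figure D4:**
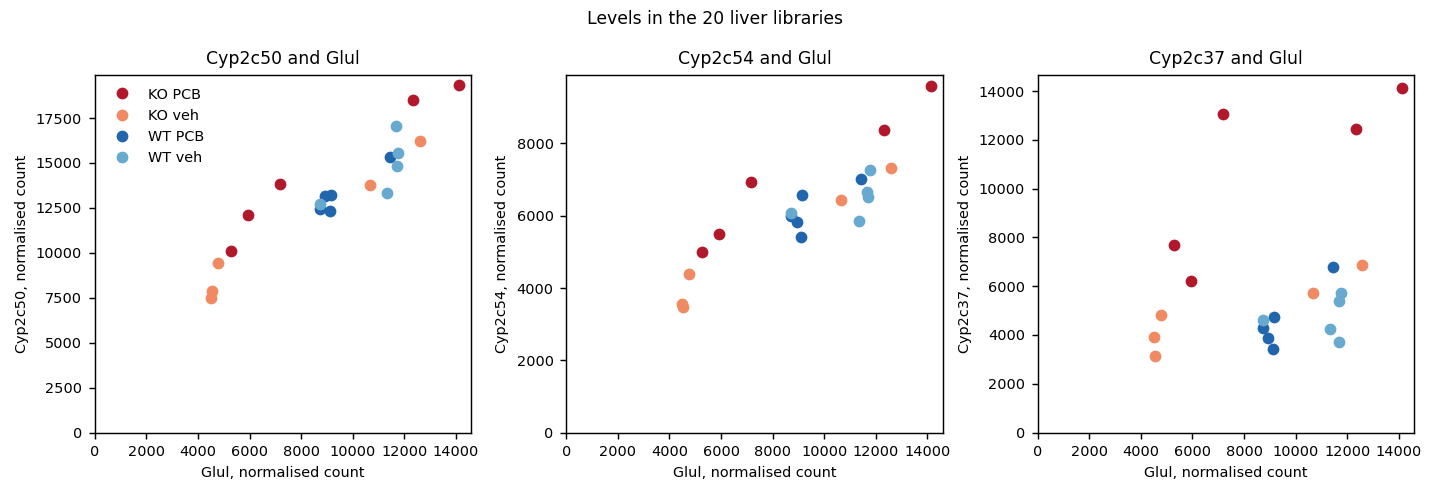
Normalised counts of Cyp2c50, Cyp2c54 and Cyp2c37 (vertical axes) against Glul (horizontal axes) in the 20 liver libraries, coloured by group. Cyp2c50 and Cyp2c54 rise with Glul (r = 0.93 and 0.88). In every panel knockout PCB-153 libraries tend to lie above the other groups at similar Glul, most clearly for Cyp2c37 (r = 0.31).

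The 3 genes with the highest correlation over the 20 livers were named for each member. Every gene with a Cyp2c symbol, member or not, was left out of this ranking. For Cyp2c29 these were Abcb11, the bile salt export pump (r = 0.89), Usp6nl (0.88) and Gm28078 (0.87), with 0.78, 0.81 and 0.62 within groups. For Cyp2c55 they were Gm28078 (0.91), Gm44992 (0.88) and the glutathione transferase gene Gstm3 (0.88). Their r with Cyp2c55 within groups was lower, at 0.64, 0.28 and 0.57, and Gm28078 averaged 10.2 normalised counts, near the filter. For Cyp2c37 they were Gm20528, Ugt1a1 and Ugt1a6a (0.84, 0.84 and 0.82), the last 2 being glucuronosyltransferases. Within groups these had 0.73, 0.68 and 0.62. The genes named for the other members had 0.67 to 0.96 within groups. After Glul, Cyp2c50 was most like Tpbgl (0.91) and Nxpe2 (0.88), and Cyp2c54 most like Gulo (0.87), which encodes an enzyme of vitamin C synthesis, and Slc1a2 (0.87), a glutamate transporter.

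Cyp2c38 was most like Gm44117 (0.87), Wdr93 (0.78) and Cebpb (0.78), which encodes a liver transcription factor. Cyp2c39 was most like Ppfibp1 (0.88), Selenop (0.88), which encodes the plasma selenium carrier, and Slc2a2 (0.85), the hepatocyte glucose transporter. In this ranking Cyp2c40 was most like Cmtm6 (0.84), Trip4 (0.83) and Arl1 (0.82). The Cyp2c non-member Cyp2c67 was closer to Cyp2c40 (0.96, and 0.92 within groups), and Cyp2c68 had 0.83 with it (0.86 within groups). Cyp2c69 was most like Suz12 (0.87), Gm9299 (0.83) and Rbm34 (0.82), and Cyp2c70 most like Psmc1 (0.76), Ccnd1 (0.75) and Derl1 (0.73).

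Of the other Cyp2c genes, 4 passed the liver filter (Cyp2c23, Cyp2c67, Cyp2c68 and Cyp2c53-ps), and none was called in any of the 5 liver comparisons. Their median log2 difference was -0.12 for knockout against wild type with PCB-153 and -0.04 with vehicle. Cyp2c67 and Cyp2c68 lie between Cyp2c39 and Cyp2c40, and share 52.8% and 43.3% of their 50-base words with other genes. Cyp2c67 had 3024 ± 439 normalised counts in knockout PCB-153 livers, 3917 ± 533 in knockout vehicle livers, 3427 ± 253 in wild-type PCB-153 livers and 3905 ± 500 in wild-type vehicle livers.

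Lists of genes that work beside the Cyp2c enzymes held few calls. None of the 4 electron donors, Por among them, none of the 7 genes of the arachidonic acid epoxide pathway and none of the 7 tested retinoic acid genes was called in any liver comparison. Of 10 bile acid genes, Abcb11 alone was called, higher in knockout with PCB-153 by 0.55 ± 0.14 (limma adjusted p = 0.0461). It had 12119 ± 2418 normalised counts in knockout PCB-153 livers and 8172 ± 879 in wild-type PCB-153 livers.

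Of 17 transcription factors known to act on Cyp2c or sex-biased liver genes, 1 was called higher in knockout with PCB-153, Cux2, a factor of female-type liver expression in mice, by 3.76 ± 0.78 (limma adjusted p = 0.0124). Its counts were 335 ± 181 in knockout PCB-153 livers and 28.6 ± 24.8 in wild-type PCB-153 livers. The library titles give no sex, and the fit held only the groups, with no term for the sex of the mice. The part of sex in the genotype differences of Cux2 and of the members was not tested. With vehicle, Nr1i2 alone of the list was called, at a log2 difference of -1.18 ± 0.20. Cux2 in knockout vehicle livers was 251, 276 and 356 in libraries 1, 3 and 4 and 14.2 and 36.6 in libraries 2 and 5, against 3.75 to 45.8 in wild-type vehicle livers. Glul and Cyp2c50 split the same knockout vehicle libraries, in the opposite direction. In knockout PCB-153 libraries 1 to 5 Cux2 was 343, 629, 333, 180 and 191, beside Glul of 5281, 7170, 14121, 5934 and 12337, without that split.

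Of the marker lists of other cells, 2 held a call in liver, both lower in knockout with PCB-153. In the erythroid list Alas2 was lower (log2 difference -1.40, limma adjusted p = 0.00166) and was 1 of 3 tested, with list sums of 3506 to 5394 in knockout and 3582 to 5321 in wild type. In the pancreas list Cela1 was lower (log2 difference -1.11, limma adjusted p = 0.0114), and Cpa1, Prss2 and Pnlip were at 0 in both groups. The part of these genes in the Cyp2c differences was not tested.

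In spleen the members were near the limit of detection. Only Cyp2c29 reached a mean of 10 normalised counts and was tested. It was not called in any of the 5 comparisons, which called 0.0315% of 19058 genes for labelled knockout against wild type with vehicle, 0.157% with PCB-153, 5.3% for PCB-153 against vehicle within labelled knockout, and 0% for PCB-153 within wild type and for the interaction. Cyp2c38 had no read in any of the 19 spleen libraries.

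The summed members stood at 434.65 normalised counts (471 reads) in labelled-knockout vehicle library 4, at 140.594 (126 reads) in wild-type PCB-153 library 1 and at 51.667 (47 reads) in wild-type vehicle library 1. In the other 16 spleens they summed to 0 to 13.6, or at most 18 reads. Those 3 libraries also had the highest sums of the 8 hepatocyte markers, at 12201, 3838 and 1387, against 26.8 to 556 in the other 16. They held 35.6, 36.6 and 37.2 member counts per 1000 hepatocyte marker counts, and the 20 livers held 23.9 to 72.8 with a median of 35.0. In the other 16 spleens, with at most 18 member reads each, the ratio was 0 to 95.9 with a median of 29.9. Without these 3 libraries, which were singled out after their values were seen, Cyp2c29 averaged 1.28 and no member reached the filter.

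**Figure D5:**
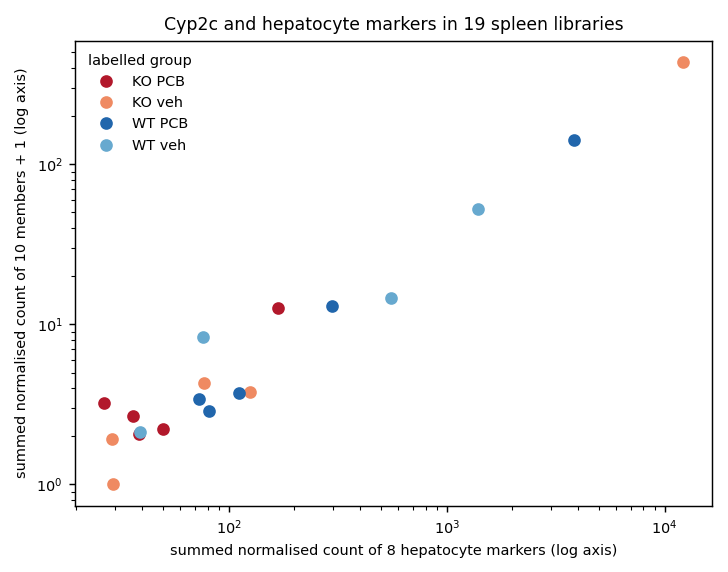
Summed normalised count of the 10 members plus 1 (vertical axis, log) against the summed normalised count of 8 hepatocyte markers (horizontal axis, log) in the 19 spleen libraries, coloured by labelled group. The 3 libraries at the top right have member sums of 434.65, 140.594 and 51.667, and the other 16 lie at 13.6 or below.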

How the data were processed

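The authors deposited 1 table per tissue of normalised counts (a signal: reads over a library's single size factor). Division by each library's smallest step gave whole reads for 100% of values within 0.05 reads. Tables of comparisons by the authors give log2 fold changes and p-values, and the one for genotype with vehicle lists called genes only. Upstream tools, per the submitters' processing notes, were STAR 2.6.0, FastQC, featureCounts and DESeq2 (version given as 3.8), with build mm10. No source used here gives their options. Liver and spleen were normalised separately and not tested against each other.

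Titles give the groups. A gene was tested if its mean reached 10, on log2(value + 1), which understates changes of low genes, with limma 3.58.1 (eBayes with trend, R 4.3.3), in 1 fit per tissue over 4 groups, two-sided, adjusted over all genes tested. A value is called at an adjusted p under 0.05. Alternatives were pseudocounts of 0.5 and 5, no filter or a minimum mean of 50, quantile normalisation, 2-group fits, a replicate block, each library left out, and edgeR 4.0.16 and DESeq2 1.42.0 on the recovered reads. On data simulated for knockout against wild type with PCB-153 over 16055 genes, limma called 73% of the genes given a log2 change of 1, 97.0% of those given 2, and 13 of the 15856 left unchanged. Each gene was drawn separately, without the spread that genes of real libraries share, so these rates need not hold for the real data.

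The members and lists were chosen with earlier results of these data known. Named genes are the members, Nr1i2, list genes called in liver and, for each member, the 3 most correlated genes without a Cyp2c symbol. Positions and coding sequences are from GENCODE M21 (GRCm38). Promoter windows are from RefSeq (GRCm38.p6), where 9 of 10 members matched. Libraries of a group differed beyond counting error (chi-square per degree of freedom at least 10.0 for liver pairs and 4.68 for spleen pairs).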

Additional observations from a re-analysis of the deposited data

Results flagged for a closer look

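Of 52 sets of libraries examined, each 1 group's values of a member or of the member sum, 8 had a highest library whose gap to the next took up more of the range than Dixon's 95% limit. For independent, normally spread values, chance flags about 1 in 20 such sets. That rate does not apply to the spleen sets, where most values rest on few reads and the sum contains Cyp2c29. In liver this was 1 of 40, Cyp2c40 at 15901.9 normalised counts in knockout vehicle library 2, with the next library at 12246.8. In spleen it was 7 of 12, and these 12 sets did not cover every member. Labelled-knockout vehicle library 4 stood apart for Cyp2c29 (195.639), Cyp2c55 (10.1511) and the summed members (434.65). That library was also the highest of its group for Cyp2c40 (66.4), Cyp2c69 (50.8), Cyp2c70 (50.8), Cyp2c50 (27.7), Cyp2c37 (17.5) and Cyp2c54 (14.8). Wild-type PCB-153 library 1 stood apart for Cyp2c29 (42.4015) and the sum (140.594). Labelled-knockout PCB-153 library 4 stood apart for Cyp2c29 (4.24324) and the sum (11.6689), at a hepatocyte marker sum of 169.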

How the results depend on the processing

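Called members kept their calls under every alternative: Cyp2c55 in both genotype comparisons in liver (log2 difference 1.40 to 1.76 with PCB-153 and 0.95 to 1.11 with vehicle), and Cyp2c29 and Cyp2c37 with PCB-153 (1.47 to 1.76 and 1.06 to 1.36). DESeq2 added 1 member with vehicle, Cyp2c29, making 2 (adjusted p = 0.0142), and 1 for PCB-153 within knockout, Cyp2c37 (adjusted p = 0.00184). The replicate block also made it 2 with vehicle (Cyp2c29, adjusted p = 0.0483), and changed no other member's call. Numbers did not pair the livers: same-numbered libraries correlated at -0.378 to 0.449 in their deviations from group means. Genes called with vehicle were 98, against 266 by DESeq2, 64 at a minimum mean of 50 and 49 to 146 with 1 library left out (wild-type library 2, 65, and 3, 53; knockout library 1, 59, 3, 59, and 4, 49). With PCB-153 they were 234, against 388 by DESeq2 and 124 to 334 with 1 library left out (wild-type library 1, 140, and 2, 124). For PCB-153 within knockout they were 0, against 63 by DESeq2, 1 with no filter and 0 to 3 with 1 library left out (wild-type vehicle library 3, 1; knockout vehicle library 2, 1; knockout PCB-153 library 4, 3). The causes were not tested.

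No called value reversed. Uncalled differences near 0 changed sign with 1 library left out: with vehicle, Cyp2c37 (-0.13 to 0.16) and Cyp2c40 (-0.066 to 0.10); with PCB-153, Cyp2c70 (-0.086 to 0.20); for PCB-153 in wild type, Cyp2c37 (-0.21 to 0.040), Cyp2c39 (-0.25 to 0.088) and Cyp2c70 (-0.0015 to 0.21); for PCB-153 in knockout, Cyp2c39 (-0.013 to 0.24) and Cyp2c70 (-0.16 to 0.12, and 0.019 by edgeR and 0.026 by DESeq2); and Cyp2c69 in the interaction (-0.17 to 0.080). In spleen no member was called under any alternative that tested one. A minimum mean of 50, leaving out labelled-knockout vehicle library 4, or leaving out the 3 spleens with the most hepatocyte markers left no member to test.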
